A study of Saccharomyces cerevisiae with 50 samples.

Results

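Double heterozygous budding yeast strains, which carry a deleted copy beside an intact copy of both paralogs of a ribosomal protein gene, were compared with strains whose labels give the deletion with no intact copy. The double heterozygotes were chosen by the "/+" in their labels. They are rpl40a/+ rpl40b/+ (strain 3654v), rpl26a/+ rpl26b/+ (4654v), rpl7a/+ rpl7b/+ (2435) and rps22a/+ rps22b/+ (4665). They gave 7 of the 50 libraries of the series, 4 of mRNA and 3 of ribosome footprints, since the footprint library labelled rpl26a/+ rpl26b/+ was left out for the reasons given with its label genes. The comparison group, called homozygous here, held 38 libraries of 19 strains. Of these strains, 11 lacked genes of the large subunit (rpl7a, rpl24a, rpl24b, rpl26a, rpl26b, rpl26a rpl26b, rpl38, rpl40a, rpl40b, rpl41a and rpl41b). The other 8 were labelled for genes of the small subunit (by their labels rps0b, rps22a in strains 4659 and 4662v, rps25b, rps25a rps25b, rps28a, rps28b and rps29b). In rpl26a rpl26b and rps25a rps25b both paralogs were deleted. The wild type was sampled 2 times.

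The strains are SK1 derivatives, and cultures in YEPD, a rich medium with 2% glucose, were kept at 30 °C until an OD600 of 0.6. Each strain had 1 library per assay, so every error given here is a spread between strains of different genotype. The labels do not state the ploidy. Of 23 haploid-specific and mating genes, SST2, AGA1 and AMN1 reached a mean of 10 RPKM in mRNA. The receptor gene STE2 had a median of 8.86 RPKM in heterozygous, 4.80 in homozygous and 6.47 in wild-type strains, and the other receptor gene, STE3, had medians of 0.187, 0 and 0. Ploidy was not read from these levels.

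Most cytosolic ribosomal proteins of budding yeast are encoded by paralogous genes, an A and a B copy, whose products are nearly or fully identical in sequence and take the same place in the ribosome. The Rpl proteins belong to the large (60S) subunit, which forms peptide bonds, and the Rps proteins to the small (40S) subunit, which decodes the message. Loss of a paralog lowers the supply of that protein and is known to slow growth and to leave an excess of the other subunit, and many paralog pairs adjust the expression of the remaining copy. Ribosome footprints are the stretches of mRNA that ribosomes shield from nuclease, and footprints relative to mRNA of the same gene are read as translational efficiency.

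Levels are in RPKM, reads per kilobase and per M reads assigned to genes (M, 1000000 reads), recomputed from the deposited values. The kilobases are of coding sequence after 60 nt are taken off, which raises the values of short genes. The heterozygous libraries held 1.352 to 1.976 M reads of mRNA and 4.548 to 7.321 M footprint reads, against 0.962 to 3.506 M and 4.102 to 8.572 M in the homozygous ones. Footprint and mRNA deviations of the same strain correlated at 0.515 to 0.811 over 1196 genes in the 3 heterozygotes used, whereas the libraries labelled rpl26a/+ rpl26b/+ stood at -0.19 to each other.

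The genes named in the heterozygote labels were read first, as a percentage of the median over all strains of other families. The paralogs are nearly identical in places, and how the authors counted reads that match both is not known here, so shares of A and B are uncertain to that extent. RPL26 was the family in which both copies lay close to the level of 1 intact copy. In the rpl26a/+ rpl26b/+ mRNA library, RPL26A stood at 53.1% (915 RPKM), RPL26B at 51.2% (1582 RPKM) and their sum at 51.9%. Both copies lay below the range of all strains of other families. The sum lay between those of rpl26a (67.4%) and rpl26b (37.5%), and the strain without either copy kept 1.32%. The footprint library of the same label held RPL26A at 99.9% and RPL26B at 100.6%. It also held RPS0A, a small subunit gene that no label names, at 28.7 RPKM or 1.00% of the median, where all other footprint libraries had 2479 to 3433 RPKM. That library went against its label in both genes and was left out of every comparison, and its values are given apart.

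In the RPL7 and RPS22 families the A copy was lower, the B copy higher and the sum inside the range of other strains. Strains of other families drew most of their RPL7 and RPS22 mRNA from the A copy. In rpl7a/+ rpl7b/+, RPL7A stood at 66.7% in mRNA and 66.0% in footprints, while RPL7B stood at 423% and 408%. The B copy gave 29.6% of RPL7 mRNA there, against a median of 6.49% in strains of other families. The sum of both copies was 89.1% in mRNA and 87.1% in footprints, inside the range of the other strains. The homozygous rpl7a strain had RPL7B at 986% in mRNA and 877% in footprints, with sums of 61.7% and 55.3%. RPL7B thus stood above all strains of other families in the heterozygote, although a copy of it was deleted, and stood higher still in rpl7a.

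The small subunit heterozygote had the same order. In rps22a/+ rps22b/+, RPS22A stood at 56.2% in mRNA and 56.0% in footprints, and RPS22B at 214% and 244%. The B copy gave 47.2% of RPS22 mRNA and 42.2% of its footprints, against medians of 19.6% and 14.0%. The sums were 84.8% and 84.7%, inside the range of the other strains. The homozygous rps22a strain 4659 had RPS22B at 391% and 465% and sums of 75.6% and 68.8%. The other library pair labelled rps22a, strain 4662v, went against its label: RPS22A stood at 93.4% in mRNA and 112% in footprints. RPS22B was at 24.3% (138 RPKM) and 15.6% (162 RPKM) there, but other strains went down to 20.4% and 18.7%, and the homozygous RPS medians were 180 and 222 RPKM, so RPS22B was low in RPS strains more widely.

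RPL40 encodes a fusion of ubiquitin and a 60S protein. In rpl40a/+ rpl40b/+, RPL40A mRNA was 2559 RPKM, 96.4% of the median and inside the range of other strains (91.9% to 118.5%), whereas RPL40B stood at 55.3%. In footprints RPL40A stood at 79.4%, below the other strains (83.5% to 113.6%), and RPL40B at 45.5%. The sum was 79.7% in mRNA and 66.5% in footprints, above that of rpl40b (56.4% and 58.6%) and of rpl40a (42.6% and 42.8%). In the library labelled rpl40a/+ rpl40b/+, RPL40A mRNA therefore did not show the lower level that its label gives. Each count of genes past the test was also computed without this strain and without 4662v. Counts of signs and of groups that do not overlap were not.

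**Figure D1:**
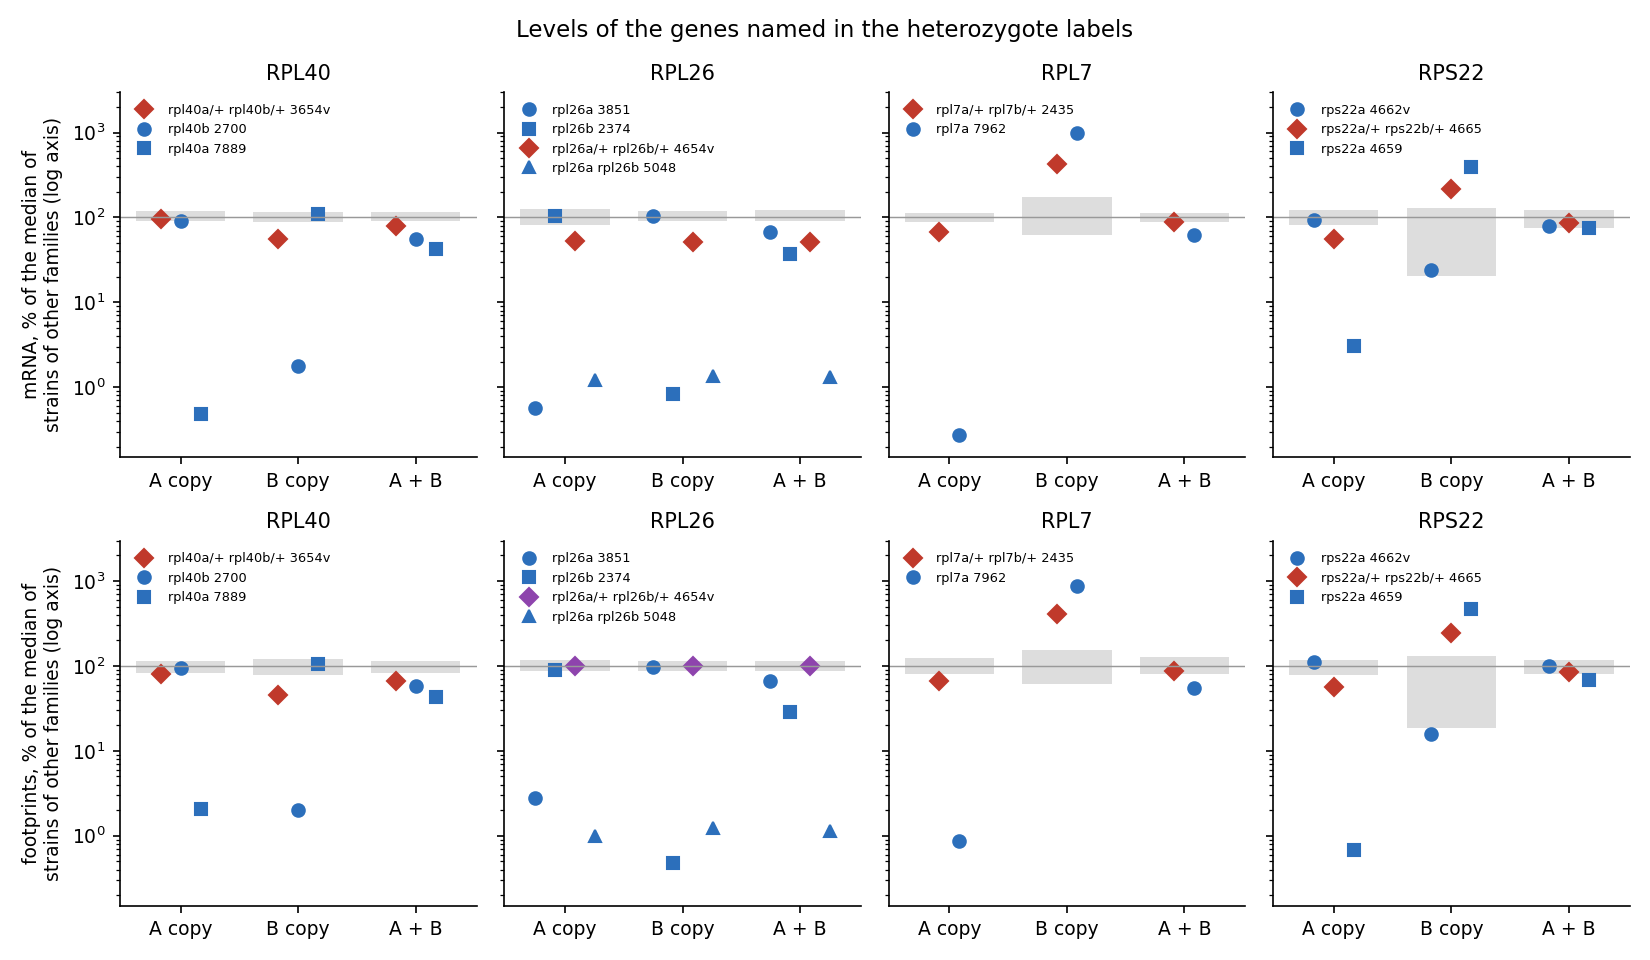
Level of the A and B genes of the 4 families in mRNA and footprints, in percent of the median of strains of other families (log axis). Grey bars are the range of those strains, red diamonds the double heterozygotes and the other points homozygous strains of the same family; RPL7B and RPS22B lie above the grey bar in the heterozygotes, and the left-out footprint library (purple) lies at 99.9% and 100.6% for RPL26A and RPL26B.

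In mRNA, no gene separated the 4 heterozygotes from the 19 homozygous strains past the test. The gene with the smallest p was PRO1, which encodes glutamate kinase, the first enzyme of proline synthesis. PRO1 mRNA was 76.3, 73.5, 71.7 and 75.2 RPKM in rpl40a/+ rpl40b/+, rpl26a/+ rpl26b/+, rpl7a/+ rpl7b/+ and rps22a/+ rps22b/+. The homozygous strains ranged from 44.7 to 68.6 with a median of 55.5, and the wild-type libraries had 64.3 and 57.1. All 4 heterozygotes thus lay above all homozygous strains, and the difference was 0.42 ± 0.085 (SE) on the log2(RPKM + 1) scale. Its adjusted p was 0.244 in limma's moderated test with subunit as a covariate. ATS1 was the gene whose 4 heterozygotes (30.1, 33.8, 31.0 and 33.6 RPKM) all lay below the homozygous strains (34.2 to 59.4, median 43.6). PRO1 and ATS1 were the 2 genes, 0.0392% of those tested, whose groups did not overlap.

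Of 5102 genes that averaged 10 RPKM or more, 0 (0%) had a Benjamini-Hochberg adjusted p under 0.05 in limma, and 278 (5.45%) had an unadjusted p under 0.05, 135 higher (2.65%) and 143 lower (2.8%) in heterozygotes. The next smallest p-values upwards belonged to INA1 (log2 difference 0.33), the flocculin gene FLO10 (0.50), POF1 (0.48) and SFG1, a transcription factor of filamentous growth (0.52). Downwards they belonged to DSD1 (D-serine dehydratase, -0.32), the ubiquitin ligase gene DMA2 (-0.32), YLR112W (-0.79) and the prefoldin subunit gene PFD1 (-0.32). None of these passed, with adjusted p from 0.823 to 0.883 in limma for all but PRO1. Without rps25a rps25b, 1 gene passed, PRO1 (adjusted p = 0.0272 in limma).

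Footprints differed for a small set of genes, most of them lower in the heterozygotes. The 3 heterozygotes had fewer footprints on DAL82, a transcriptional activator of allantoin catabolism, on STP3, a zinc finger protein gene, and on CBR1, which encodes cytochrome b5 reductase. They had more footprints on CYB5, which encodes cytochrome b5 itself, and on YFR006W. Of 4218 genes tested, 17 (0.403%) passed an adjusted p under 0.05 in limma, 2 (0.0474%) higher and 15 (0.356%) lower. An unadjusted p under 0.05 was found for 608 genes (14.4%), 131 higher (3.11%) and 477 lower (11.3%). The median difference of all genes tested was -0.05. Groups did not overlap for 32 genes (0.759%), with the heterozygotes above in 9 (0.213%) and below in 23 (0.545%), and these held 7 of the 17.

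DAL82 footprints were 12.8 RPKM in rpl40a/+ rpl40b/+, 9.26 in rpl7a/+ rpl7b/+ and 13.4 in rps22a/+ rps22b/+, against 15.7 to 25.9 (median 22.1) in the homozygous strains. The wild-type libraries had 22.2 and 19.1. Every heterozygote lay below every homozygous and wild-type library, and the difference was -0.81 ± 0.127 (SE, adjusted p = 0.0069 in limma). DAL82 mRNA was not low, at 20.5 to 31.3 RPKM in the 4 heterozygotes (log2 difference 0.25, unadjusted p = 0.22 in limma). The reads behind the DAL82 footprint values were few, 43 to 52 per heterozygous library.

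STP3 footprints were 28.7, 33.4 and 32.6 RPKM in the same heterozygotes and 33.3 to 64.8 in homozygous strains (-0.64, adjusted p = 0.021 in limma). The groups met at their edge. CBR1 footprints were 126, 153 and 136 RPKM against 148 to 238 (-0.52), again with a small overlap. CYB5, the electron carrier that Cbr1 reduces for lipid desaturation and sterol synthesis, moved the other way. CYB5 footprints were 2453, 2312 and 2795 RPKM, above all homozygous strains (1625 to 2250, median 1931). The difference was 0.39 ± 0.084 (SE, adjusted p = 0.0428 in limma), and the wild-type libraries lay at 2221 and 1810, inside the homozygous range.

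YFR006W, a gene listed without a standard name, had the larger of the 2 rises. Its footprints were 81.0, 63.8 and 78.4 RPKM in the heterozygotes, 31.2 to 43.9 in RPL homozygous strains and 33.7 and 34.0 in the wild type. RPS homozygous strains were higher, with a median of 54.6 and a highest value of 68.7, so the groups overlapped there. The difference was 0.90 ± 0.195 (SE, adjusted p = 0.0428 in limma). AAP1 (arginine/alanine aminopeptidase, 0.83), HGH1 (a chaperone of elongation factor eEF2, 0.57) and GLC7 (catalytic subunit of protein phosphatase PP1, 0.38) came next upwards and did not pass, with adjusted p of 0.056 to 0.071 in limma.

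The other falls named by size spanned several functions. MTL1, a cell wall sensor gene, differed by -0.71 and SMX3, which encodes the spliceosomal protein SmF, by -0.53. RAM2, the shared subunit of protein prenyltransferases, differed by -0.52 and the ESCRT-I gene STP22 by -0.43. YPL229W (-0.53), YOL036W (-0.48) and the transporter-like gene ESBP6 (-0.46) also fell. Of the translation factors on record, CAM1, a subunit of the eEF1B exchange factor, was 337 ± 30.4 RPKM in heterozygotes (SD, n = 3) and 413 ± 32.7 in homozygous strains (n = 19). This CAM1 difference was -0.31. Outside the rule by which genes were named, and chosen after their values were seen, PIB2 (-0.43), SPG5 (-0.39), TAX4 (-0.42) and YIH1, an inhibitor of the Gcn2 kinase (-0.39), complete the 17.

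The mRNA of these genes did not carry the same differences past any threshold. None of the 17 had an unadjusted p under 0.05 in mRNA, though 14 had the same sign there. As the 17 were picked for heterozygotes apart from the homozygous strains, the place of wild-type and left-out libraries among them is only a description. The share over all genes was not taken. In 15 of the 17, both wild-type libraries lay outside the heterozygous range on the homozygous side. The left-out footprint library lay on the heterozygous side of the homozygous median for 11 of the 17, on that side of the RPS homozygous median for 9, and beyond all homozygous strains for 2. The calls rested on which libraries were used: 0 genes passed without rpl7a/+ rpl7b/+, 1 without rpl40a/+ rpl40b/+, 2 without rpl38 and 45 without rps22a/+ rps22b/+. With neither 3654v nor 4662v, 1 gene passed.

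**Figure D2:**
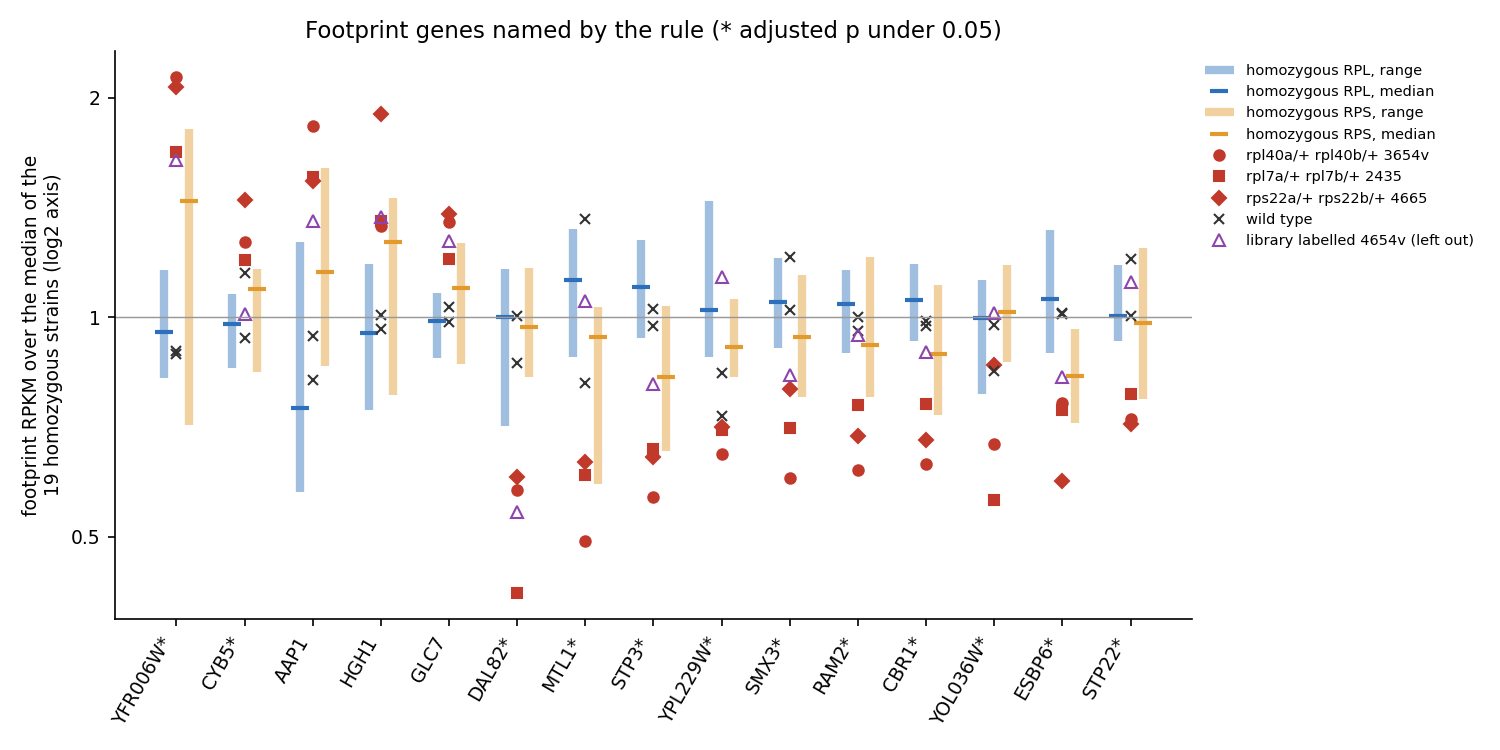
Footprint level of the 15 genes named by size of change or smallest p, relative to the median of the homozygous strains. Bars give the range of RPL and of RPS homozygous strains, points the 3 heterozygotes, crosses the wild type and the triangle the left-out library, and an asterisk marks an adjusted p under 0.05 in limma; the DAL82 points of the heterozygotes lie below both bars and those of CYB5 above both.

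Translational efficiency was taken within each strain as footprints minus mRNA in log2(RPKM + 1). It differed for 35 of 4195 genes (0.834%), 13 higher (0.31%) and 22 lower (0.524%) in heterozygotes, at an adjusted p under 0.05 in limma. An unadjusted p under 0.05 was reached by 694 genes (16.5%), 248 higher (5.91%) and 446 lower (10.6%). YDJ1, an Hsp40 chaperone of the cytosol (0.36), CPR6, a cyclophilin that binds Hsp90 (0.28), and NOP1, the methyltransferase of box C/D snoRNPs (0.39), were higher. MRPL20, a mitochondrial large subunit protein gene (-0.49), and the cell wall gene NCW2 (-0.39) were lower.

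The efficiency of SMX2, which encodes the spliceosomal protein SmG, was 1.45, 0.96 and 2.06 in rpl40a/+ rpl40b/+, rpl7a/+ rpl7b/+ and rps22a/+ rps22b/+, with a homozygous median of 0.83. The SMX2 groups overlapped, since homozygous strains reached 1.75. MAM33, a mitochondrial matrix protein gene, had efficiencies of 1.16, 1.06 and 1.02, above all homozygous strains (0.02 to 0.87). QCR6, a subunit gene of respiratory complex III, was higher by 0.65, YFR006W by 0.56 and HGH1 by 0.41. The largest falls were in DAL82 (-0.97), YAL065C (-0.87), the cytochrome oxidase assembly gene COA2 (-0.81), the G1 transcription gene MSA2 (-0.68) and TDA7 (-0.64). YAL065C resembles the FLO genes in sequence, so its reads may be shared with them and its value is uncertain.

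Both assays enter efficiency by construction, and selecting on their difference favours opposite signs. The values here therefore only describe the called genes. Genes of lower efficiency had a median footprint difference of -0.44 and a median mRNA difference of 0.10, and those of higher efficiency 0.28 and -0.06. An unadjusted p under 0.05 in mRNA was found for 6 of the 35, and 8 had the same sign in mRNA as in efficiency. CYB5, YFR006W, DAL82, STP3 and CBR1 were called in footprints as well, 5 of the 17 footprint calls and 5 of the 35 efficiency calls. Chosen after their values were seen, the segregase gene CDC48 was higher (0.40), and the G1 cyclin genes CLN3 (-0.60) and PCL1 (-0.61), the SWI/SNF gene SNF5 (-0.61) and the polyadenylation gene PTA1 (-0.53) were lower. The count was 0 without rpl40a/+ rpl40b/+ and 0 without rpl7a/+ rpl7b/+, and 151 without rps22a/+ rps22b/+, and it fell to 21 or 22 without rpl38, rpl40b or rpl24a.

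Of the genes grouped by role, a few lists had differences that were mostly of the same sign, and most lists were mixed. The median over all genes was 0.01 in mRNA, -0.05 in footprints and -0.04 in efficiency. In mRNA, 37 of 38 general stress genes had negative differences (median -0.25), as did 23 of 25 chaperone genes under Hsf1 (-0.19) and 31 of 33 proteasome genes (-0.11). All 11 phosphate and zinc genes had positive ones (0.19). In footprints, negative differences were found for 24 of 32 general stress genes (median -0.19). They were found for 12 of 23 chaperone genes (-2.1e-05) and 17 of 33 proteasome genes (-0.02), so these 2 lists were mixed there. Of 8 phosphate and zinc genes, 7 had positive footprint differences (0.16). The share of each sign over all genes was not taken. No member of any list passed the test in mRNA, where 0% of all genes did. The smallest p-values in the stress lists belonged to ALD4, a mitochondrial aldehyde dehydrogenase gene (-0.69), to HCH1, a co-chaperone of Hsp90 (-0.20), and to the proteasome receptor gene RPN10 (-0.27).

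The share of mRNA reads on the general stress genes shows how far the groups overlapped. It was 0.403% in rpl40a/+ rpl40b/+, 0.309% in rpl26a/+ rpl26b/+, 0.352% in rpl7a/+ rpl7b/+ and 0.231% in rps22a/+ rps22b/+. RPL homozygous strains ranged from 0.305% to 0.569% (median 0.424%) and RPS homozygous strains from 0.225% to 0.521% (median 0.27%). Each heterozygote lay below the median of its own class and inside its range. The proteasome share of the 3 RPL heterozygotes was 0.628%, 0.599% and 0.617%, near the wild-type 0.629% and 0.636%, where RPL homozygous strains had 0.535% to 0.831% with a median of 0.705%. In rps22a/+ rps22b/+ it was 0.606%, level with the RPS homozygous median of 0.605%.

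In footprints, 66 of 76 genes for 60S assembly factors had positive differences (median 0.15), as had 58 of 67 for 40S assembly factors (0.13). These proteins build ribosomal subunits in the nucleolus and nucleus. RRP15, a 60S precursor protein gene (0.56), and TSR2, the escort of Rps26 (0.42), had the smallest p-values, and none passed, where 0.403% of all genes did. The footprint share of 60S assembly factors was 1.32% in rpl40a/+ rpl40b/+, 1.70% in rpl7a/+ rpl7b/+ and 2.15% in rps22a/+ rps22b/+. The first lay below and the second above the RPL homozygous median of 1.59%, and the third above all RPS homozygous strains, whose highest value was 2.11%.

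Signs were mixed in most of the remaining lists. The 70 genes for 60S proteins had medians of 0.00 in mRNA and -0.02 in footprints and the 47 for 40S proteins 0.01 and 0.00. Genes for translation factors had 0.04 and 0.07, for RNA polymerases I and III 0.06 and 0.08, and for amino acid synthesis under Gcn4 0.03 and -0.04. Sulfate and methionine genes had 0.04 and 0.06, oxidative phosphorylation genes -0.05 and -0.03, mitochondrial ribosomal protein genes 0.03 and -0.03, and genes of the TCA and glyoxylate cycles 0.02 and 0.00. Glycolysis and fermentation genes had -0.01 and 0.08, hexose transport genes -0.07 and, over 8 genes in footprints, -0.26, core histone genes -0.08 and -0.02 and cell wall genes -0.08 and -0.07. Ergosterol genes had 0.00 and 0.02, ribosome-bound chaperones 0.00 and 0.06 and genes of stalled ribosome rescue 0.01 and 0.00. CAM1 was the 1 member of a list past the test in footprints.

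The 8 genes named in the heterozygote labels had medians of 0.44 in mRNA and 0.35 in footprints, and the 13 ribosomal protein genes of other deleted families 0.30 and 0.26. These values are set by the deletions in the homozygous group and are no result. Of the haploid-specific and mating genes, 3 of 23 reached the minimum in mRNA (median 0.08) and none in footprints. The 2 early meiotic genes tested had 0.19 in mRNA, the 6 strain marker genes -0.05 in mRNA and -0.11 in footprints, and the 7 genes for RNA quality and of the mitochondrial genome 0.07 in mRNA.

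Comparing each double heterozygote with homozygous strains of its own family asks the same question with the gene pair held fixed. With family as the covariate, 0 of 5093 genes (0%) passed in mRNA (4 heterozygotes and 8 homozygous strains) and 0 of 4215 (0%) in footprints (3 and 5) in limma. An unadjusted p under 0.05 was reached by 599 genes (11.8%) and 476 genes (11.3%). In footprints 100 genes passed without rps22a/+ rps22b/+. The homozygous strains of the RPS22 family then had no heterozygote to be compared with. They added to the spread between strains but not to the difference, and among them is the library pair that went against its label. The part of their spread in the count was not tested. When the RPS22 family was left out altogether, 656 genes passed. That fit takes the difference from the same strains as the fit with 100, so the higher count does not show a larger difference.

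That narrower fit, taken up in detail after its count was seen, set rpl40a/+ rpl40b/+ and rpl7a/+ rpl7b/+ against rpl40b, rpl40a and rpl7a, and the genes named from it were chosen after their values were seen. Genes for amino acid synthesis under Gcn4 had more footprints in both heterozygotes, with SNZ1 and SNO1, which make vitamin B6, and the phosphate transporter PHO84 among the largest rises. GCN4, the transcriptional activator of amino acid synthesis, which is itself known to be regulated at translation, also rose. Among the 493 genes that fell were 16 of 33 proteasome genes, a count that did not hold under median-of-ratios or quantile scaling or without rpl40a. Of 4226 genes, 656 (15.5%) passed an adjusted p under 0.05 in limma, 163 higher (3.86%) and 493 lower (11.7%), and 0 of 5102 (0%) passed in mRNA, where 1021 (20%) had an unadjusted p under 0.05. The fit rests on 5 libraries with 2 residual degrees of freedom, so the call leans on the spread shared across genes.

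GCN4 footprints were 223 RPKM in rpl40a/+ rpl40b/+ and 177 in rpl7a/+ rpl7b/+, against 72.3 in rpl40b, 84.6 in rpl40a and 62.7 in rpl7a. The wild-type libraries had 112 and 125, between the groups, and other RPL homozygous strains ranged from 73.1 to 277. The GCN4 difference was 1.49 ± 0.13 (SE, adjusted p = 0.000539 in limma). GCN4 mRNA was 1562 and 1738 RPKM in the heterozygotes and 1650, 1796 and 1899 in the homozygous strains (-0.09, unadjusted p = 0.16 in limma). The rps22a/+ rps22b/+ footprint library had 36.1 RPKM of GCN4, and over all heterozygous and homozygous strains the difference was 0.06.

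Of 44 measured genes of amino acid synthesis under Gcn4, 30 rose and 1 fell (3.86% and 11.7% of all genes), and the median footprint difference was 0.69 (mRNA 0.42). ARG1, argininosuccinate synthetase, had 634 and 395 RPKM in the heterozygotes and 101, 80.7 and 57.4 in rpl40b, rpl40a and rpl7a, with 284 and 402 in the wild type. Its footprint difference was 2.78 and its mRNA difference 2.09. SER3, of serine synthesis, had 74.3 and 61.4 RPKM against 10.4, 8.01 and 4.92 (3.11). The list as a whole took 2.44% and 2.21% of footprint reads in the heterozygotes, 1.40% to 1.52% in the 3 homozygous strains and 1.98% and 2.22% in the wild type. The heterozygotes thus lay near or above the wild type and these 3 homozygous strains below it. Over all RPL homozygous strains the share ran from 1.40% to 3.36% (median 1.79%), so the highest lay above both heterozygotes. Other RPL homozygous strains likewise reached 1087 RPKM of ARG1 and 132 of SER3. ARG4 (1.85), HIS4 (1.45) and LYS2 (0.67), which rose as well, are also among the 6 genes that serve as SK1 strain markers, and the part of marker alleles in these values was not tested.

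Among the largest rises, SNZ1 footprints were 415 and 336 RPKM in the heterozygotes and 53.7, 15.3 and 8.19 in rpl40b, rpl40a and rpl7a (4.40), with SNO1 at 4.15. The wild type had 115 and 266 RPKM of SNZ1, and other RPL homozygous strains ranged from 23.5 to 1122, reaching above both heterozygotes. PHO84 had 36.2 and 48.6 RPKM against 1.08, 2.32 and 0.108 (4.53), with 18.6 and 26.6 in the wild type. Beside the 3.86% of all genes that rose and the 11.7% that fell, 5 of 9 phosphate and zinc genes rose and 1 fell (2 rises without rpl40a). Glycolysis and fermentation genes rose in 10 of 21 cases and none fell. TDH2, glyceraldehyde-3-phosphate dehydrogenase, had 1980 and 1461 RPKM against 619, 612 and 448 (1.69), and the enolase gene ENO1 (1.17) and the phosphoglycerate mutase gene GPM1 (0.77) rose too. TDH2 is one of 3 near-identical genes, whose reads the authors' counting could have split. Sulfate and methionine genes rose in 8 of 18 cases and fell in 1, with the homocysteine synthase gene MET17 at 1.72. Other RPL homozygous strains reached above both heterozygotes at SNO1, TDH2, ENO1, GPM1 and MET17. Their highest values were 126, 2303, 831, 9896 and 465 RPKM in that order. At PHO84 their highest value was 28.8 RPKM, below both heterozygotes.

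Of 33 proteasome genes, 16 fell and none rose, where 11.7% of all genes fell and 3.86% rose (median -0.41, beside -0.19 for all genes). PRE3, a catalytic subunit gene, had 295 and 304 RPKM in the heterozygotes and 413, 523 and 564 in rpl40b, rpl40a and rpl7a (-0.75), with 345 and 318 in the wild type. PRE10 (-0.69), PRE2 (-0.66) and RPN10 (-0.61) followed it. The proteasome took 0.69% and 0.653% of footprint reads in the heterozygotes, 0.826%, 0.882% and 0.961% in the homozygous strains and 0.66% and 0.666% in the wild type. CIN5, a stress transcription factor gene chosen by the size of its change, had 27.0 and 43.6 RPKM against 137, 179 and 182 (-2.30), below the wild-type 81.5 and 97.2. Other RPL homozygous strains went down to 225 RPKM of PRE3 and 14.4 of CIN5, below both heterozygotes.

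Other falls were spread over several lists. Beside the 11.7% of all genes that fell, general stress genes did so in 7 of 35 cases (TMA10 at -2.12), hexose transport genes in 3 of 8, and core histone genes in 3 of 8 (HTA1 at -0.68 and HHF1 at -0.60). After median-of-ratios scaling these counts were 3, 1 and 0, and without rpl40a they were 2 of 30, 1 and 2. Of all genes, 82 of 4226 fell under that scaling and 166 of 4214 without rpl40a. The footprint share of the general stress genes was 0.579% in rpl40a/+ rpl40b/+ and 0.491% in rpl7a/+ rpl7b/+, and 0.574%, 0.73% and 0.766% in rpl40b, rpl40a and rpl7a, so the groups overlapped. Beside the 3.86% of all genes that rose, genes of the TCA and glyoxylate cycles did so in 3 of 16 cases, led by the peroxisomal citrate synthase gene CIT2 (2.49). Genes for 60S proteins rose in 11 of 70 cases and fell in 1, and those for 40S proteins in 4 and 1 of 47. Their rises became 18 and 13 after median-of-ratios scaling, where 232 of all 4226 genes rose. Without rpl40a they were 5 and 2, where 103 of all 4214 genes rose. RPL22B had 288 and 186 RPKM in the heterozygotes against 25.3, 20.7 and 8.37 (3.91), with an mRNA difference of 0.72. Other RPL homozygous strains ranged from 17.2 to 421 RPKM of RPL22B. RPL18B (1.26), RPL8A (1.15) and RPL9B (1.05) rose as well. The highest of the other RPL homozygous strains had 463, 2179 and 1053 RPKM of them and 123 of CIT2, above both heterozygotes at each gene. RPL8A stood at 1365 and 1254 RPKM in the heterozygotes, near the wild-type 1367 and 1282. No gene for 40S assembly factors (of 67) and none for translation factors (of 40) passed, where 15.5% of all genes did.

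The split between rises and falls moved with scaling. The median difference of all footprint genes was -0.19 here and 0.00 after median-of-ratios scaling, under which 314 genes passed, 232 higher and 82 lower, and after quantile scaling 283 passed, 169 higher and 114 lower. The count was 269 without rpl40a. Without rpl40a/+ rpl40b/+, rpl7a/+ rpl7b/+ or rpl7a the difference rests on 1 heterozygote, so those counts are not given. Any strain left out leaves 1 residual degree of freedom. The Gcn4 list had 23 to 34 rises under the settings that kept both heterozygotes in the difference. The proteasome had 0 falls after median-of-ratios scaling, 3 after quantile scaling and 0 without rpl40a. Under the other such settings, among them totals without ribosomal protein genes (14) and voom (14), 9 to 16 proteasome genes fell.

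**Figure D3:**
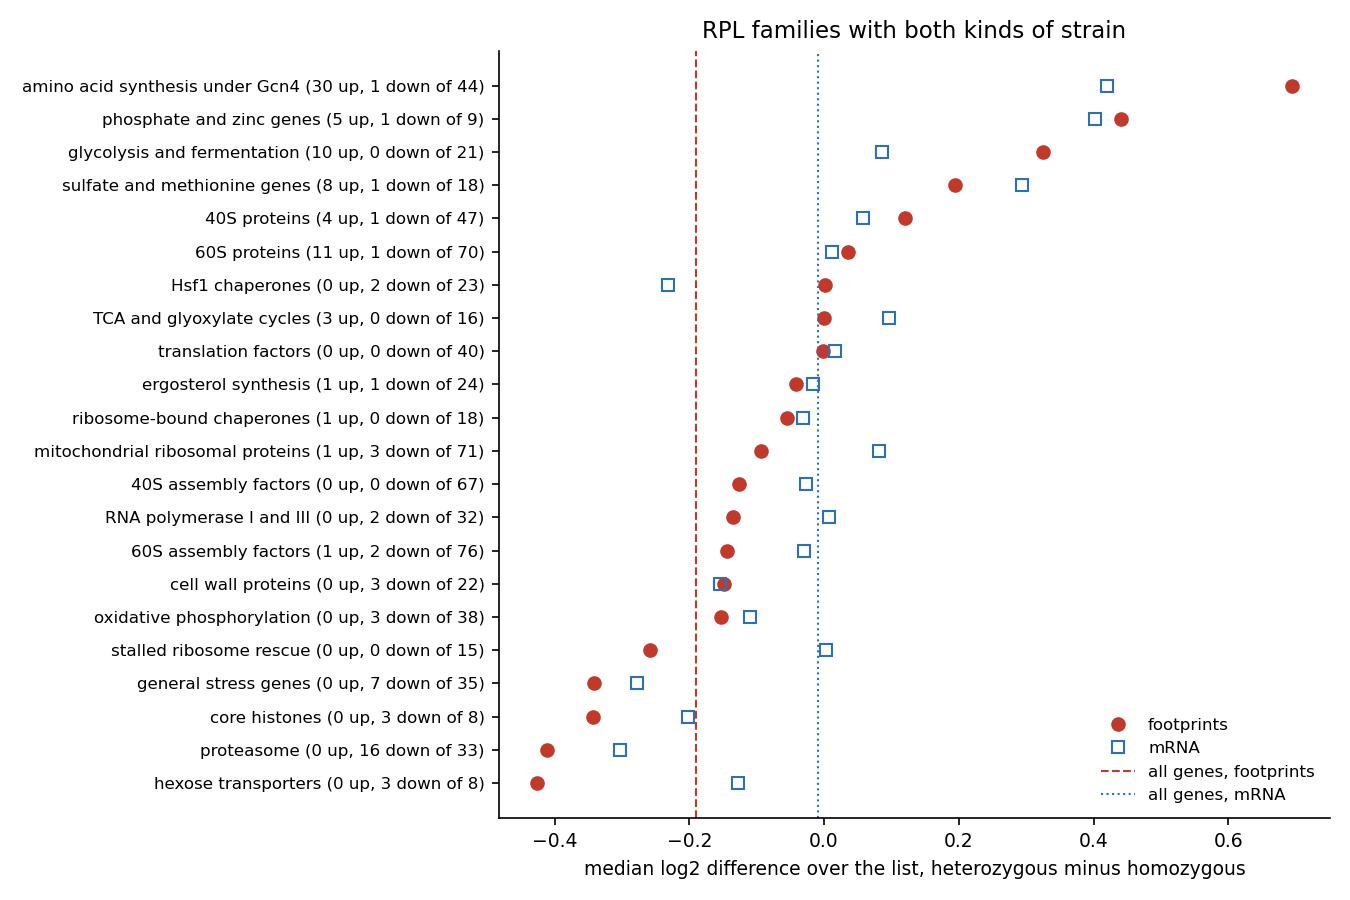
Median log2 difference of each gene list between the double heterozygotes and the homozygous strains of the RPL40 and RPL7 families, footprints as circles and mRNA as squares, with dashed lines at the medians of all genes. The Gcn4 list lies at 0.69 in footprints and 0.42 in mRNA, and the proteasome at -0.41 and -0.30.

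Whether heterozygosity had a different effect in the 2 subunit classes was tested as an interaction, with rps22a/+ rps22b/+ as the 1 RPS heterozygote, which is assumed to vary like the others. In mRNA, 2 of 5102 genes (0.0392%) passed in limma and 257 (5.04%) had an unadjusted p under 0.05. YLR456W mRNA was 20.1, 21.3 and 16.5 RPKM in the RPL heterozygotes and 1.19 in rps22a/+ rps22b/+, which is 1 read, while homozygous strains had 8.7 to 23.3. PPT2, the gene for the phosphopantetheine transferase of mitochondria, was 16.4, 11.2 and 19.9 RPKM in the RPL heterozygotes and 2.85, or 2 reads, in rps22a/+ rps22b/+. PPT2 in homozygous strains ranged from 11.3 to 26.1. The count was 4 without rps25a rps25b. It was 1 without each of rpl41a, rpl41b, rpl26b, rpl40a, rpl40b, rps22a (4659 or 4662v), rps25b, rps28a, rps28b, rps29b, rpl40a/+ rpl40b/+ and rpl7a/+ rpl7b/+. In footprints 0 of 4218 genes (0%) passed in limma (1 without rps22a 4659), and 232 (5.5%) had an unadjusted p under 0.05.

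The heterozygotes also differed in which strains they resembled, as read from the correlation across genes of deviations from the median of all libraries, with genes of at least 100 RPKM. This is a description across genes, which are not independent. The rps22a/+ rps22b/+ mRNA correlated most with the homozygous rps22a strain 4659 (r = 0.725) and rps29b (0.711), and its footprints with rps28b (0.762), rps0b (0.761) and 4659 (0.76). The library labelled rps22a 4662v stood at -0.117 to it in mRNA. The RPL heterozygotes were not most like their own families. rpl40a/+ rpl40b/+ correlated most with rpl41a (0.578 in mRNA and 0.539 in footprints) and stood at -0.26 in mRNA to rpl40a and at -0.41 to rpl40b. rpl7a/+ rpl7b/+ was most like rpl26a in mRNA (0.413) and rpl40a/+ rpl40b/+ in footprints (0.497), and stood at -0.11 and -0.33 to rpl7a. rpl26a/+ rpl26b/+ mRNA was most like rps25b (0.51).

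A pair of ribosomal protein genes, chosen after their values were seen, shows this at single genes. RPS9A, a minor paralog of a 40S protein gene, had mRNA levels of 219, 500 and 385 RPKM in the RPL heterozygotes and 48.1 in rps22a/+ rps22b/+. The homozygous medians were 533 in RPL and 48.5 in RPS strains, and the wild type had 642 and 532. RPS9A was thus low in the RPS heterozygote, at the level of homozygous RPS strains. RPL22B, the minor paralog of a 60S protein gene, had footprints of 288 and 186 RPKM in the RPL heterozygotes used and 138 in rps22a/+ rps22b/+, with homozygous medians of 34.8 in RPL and 236 in RPS strains and 102 and 113 in the wild type. RPL22B footprints in the RPL heterozygotes therefore lay above the wild type, where the median RPL homozygous strain lay below it. RPL homozygous strains outside the RPL40 and RPL7 families ranged from 17.2 to 421 RPKM, so the highest lay above both heterozygotes. RPL22B mRNA was 264, 170, 173 and 166 RPKM in the 4 heterozygotes, with homozygous medians of 134 in RPL and 201 in RPS strains.

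**Figure D4:**
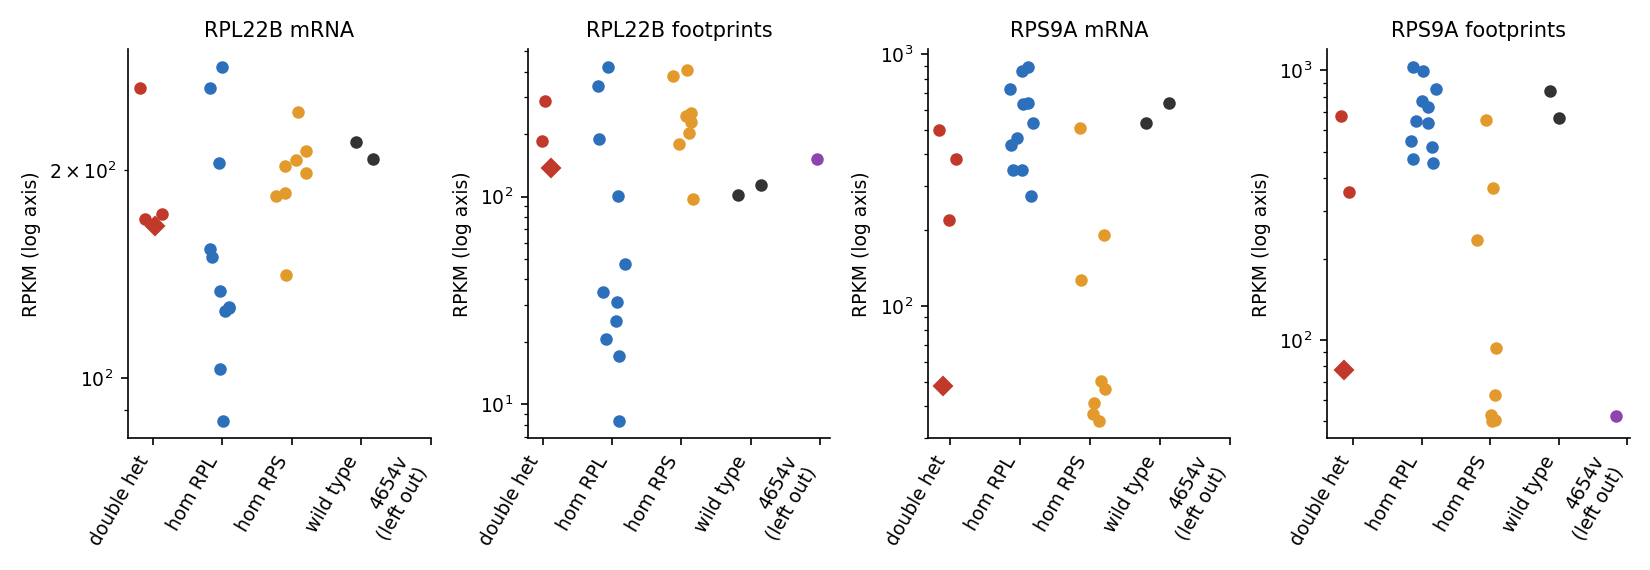
RPL22B and RPS9A in mRNA and footprints, in RPKM on a log axis, by group; each point is 1 library and the diamond is rps22a/+ rps22b/+. RPS9A mRNA stands at 48.1 in that strain and at 219 to 500 in the RPL heterozygotes.

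Against the wild type, the heterozygotes differed at 1 gene in mRNA and at none in footprints. YMR013C-A had 10, 3, 4 and 3 mRNA reads in the heterozygotes and 0 in both wild-type libraries (1 of 5103 genes, 0.0196%, in limma). Homozygous strains ranged from 0 to 36.4 RPKM at YMR013C-A, and the call was lost without any 1 of the 4 heterozygotes and without most homozygous strains. An unadjusted p under 0.05 was reached by 190 genes (3.72%) in mRNA and, with 0 of 4220 (0%) adjusted, by 343 (8.13%) in footprints. Homozygous strains against the same 2 wild-type libraries gave 0 genes in each assay in limma, with 136 (2.67%) and 155 (3.67%) unadjusted, and 1 gene in mRNA without rps29b. Both comparisons share the wild-type libraries.

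The distance of each library from the wild type, the median over genes of the absolute log2 difference from the wild-type mean, differed between the kinds of strain by less than the spread within them. In mRNA, over 1455 genes, it was 0.143 in rpl40a/+ rpl40b/+, 0.118 in rpl26a/+ rpl26b/+, 0.116 in rpl7a/+ rpl7b/+ and 0.181 in rps22a/+ rps22b/+. The mean was 0.139 ± 0.03 (SD, n = 4) against 0.154 ± 0.045 (n = 19, 0.0928 to 0.241) in homozygous strains. Adjusted for subunit, the difference was -0.0058 (exact two-sided permutation within subunit, p = 0.759, with 0.000305 the smallest p possible). In footprints, over 1414 genes, the heterozygotes had 0.178, 0.136 and 0.231 and the homozygous strains 0.172 ± 0.045 (SD, n = 19, 0.0941 to 0.278). The footprint difference was 0.0137 (exact permutation p = 0.585, smallest possible 0.00142). The 2 wild-type libraries stood 0.117 apart in mRNA and 0.132 in footprints.

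**Figure D5:**
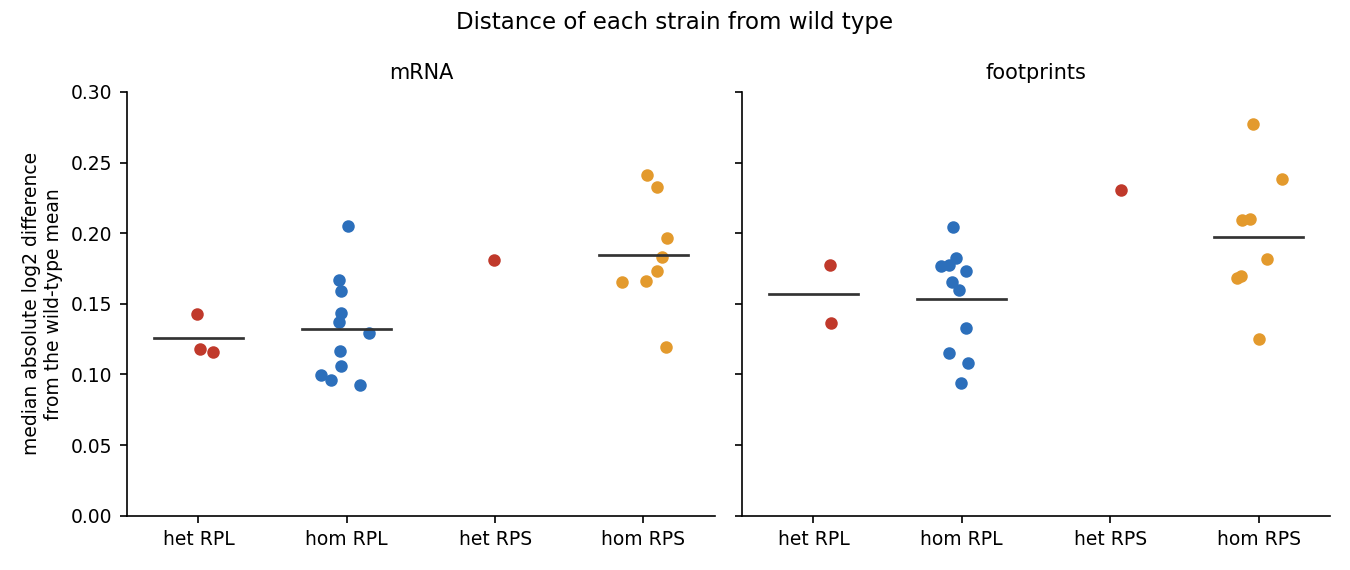
Distance from the wild type (median over genes of the absolute log2 difference from the mean of the wild-type libraries) in mRNA and footprints; each point is 1 library and lines are group means. Heterozygous mRNA libraries lie between 0.116 and 0.181, inside the homozygous range of 0.0928 to 0.241.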

How the data were processed

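Total mRNA and ribosome footprints had been sequenced from 25 strains, and the authors deposited the values of each assay under RPKM headings. What was deposited is a signal that grows with coding length: a read counts in proportion to that length after 60 nt are taken off. From these steps whole reads were recovered (tolerance 0.03 reads) and RPKM recomputed. Whole reads came out for 87.6% of 5812 genes that had signal and a known length, against 19 of 5803 at another gene's length. For 1085 others the length came from the values. The submitters' processing notes name Bowtie2, CASAVA and bcl2fastq 2.17; for the build, the use of strand and reads that match several places, nothing is stated in the sources used here. Gene names came from RefSeq's R64 table, which 5994 of 6679 open reading frames matched. An unnamed line of totals in each table (2 in all) and 153 frames without a length (9.33e-05% of mRNA signal) were left out.

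Genes that averaged 10 RPKM or more went into limma 3.58.1 (R 4.3.3), after a run on simulated data, on log2(RPKM + 1) with a mean-variance trend and subunit as covariate, two-sided, Benjamini-Hochberg over all genes tested. The strain is the block in translational efficiency: the own mRNA ranked first among all mRNA libraries for 24 of 24 footprint libraries. The wild-type libraries are not copies of 1 library (chi-square over its degrees of freedom 3.3 in mRNA, 10.6 in footprints). Intervals on reads are not given, and p-values measure the spread between strains, some of which share deleted genes. The labels give no batch. The members, the 28 gene lists and the tests were chosen with earlier results of these data known. The genes named were the 10 largest rises and falls past the test (5 for translational efficiency), the smallest p up to 5 per direction where fewer passed, and up to 4 members per list past the test. The planned count tests on the deposited columns were not run, since the unit is a signal; voom on the recovered reads was.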

Additional observations from a re-analysis of the deposited data

Results flagged for a closer look

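YLR456W and PPT2 mRNA passed the interaction test of heterozygosity and subunit, but the RPS arm is 1 library, so a difference between the classes cannot be told apart from that library. The RPS minus RPL difference was -3.12 on the log2 scale for YLR456W (adjusted p = 0.0056 in limma) and -2.22 for PPT2 (adjusted p = 0.0375 in limma). The library, rps22a/+ rps22b/+, had 1 and 2 reads at these genes, and both calls were lost with a pseudocount of 5 and with voom. At a minimum of 50 RPKM neither gene was tested.

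The left-out footprint library labelled rpl26a/+ rpl26b/+ held more footprints than both wild-type libraries at 4 of the 5 genes named as higher in the heterozygotes, of which YFR006W had passed the test. It had 62.2 RPKM of YFR006W (wild type 33.7 and 34.0), 53.0 of AAP1 (32.1 and 36.9), 143 of HGH1 (101 and 105) and 319 of GLC7 (259 and 247). At CYB5, the other rise that passed, it had 1949 RPKM, between the wild-type 2221 and 1810. The share of all genes at which this library exceeded both wild-type libraries was not taken, so the 4 of 5 are only a description. At YFR006W its value lay between the median and the highest value of RPS homozygous strains given above. The part of its uncertain identity in these values was not tested. Of 15 groups of gene values or of distances from the wild type checked for 1 library apart from the others, 0 had one. Chance gives about 1 in 20 for groups that were not selected. Most of these genes were named for a small p, which favours heterozygotes that agree, so that rate does not apply to them.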

How the results depend on the processing

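Counts of genes past the test depended on scaling, filter and strain, and the cause of each shift was not tested. At a minimum of 50 RPKM, genes of a lower mean were not tested, so calls such as DAL82, YLR456W and PPT2 were lost in advance. The 17 footprint calls became 11 with a pseudocount of 5, 2 at a minimum of 50 RPKM, 55 with median-of-ratios scaling (30 higher), 1 without the subunit covariate, 36 in RPL strains alone, 27 with the left-out library and 1 without 3654v and 4662v, and 0 to 45 with 1 strain left out. The count fell to 5 to 11 without rpl26a, rpl26b, rpl26a rpl26b, rpl24b, rpl40b, rpl24a, rpl7a, rps28a, rps25b, rps22a 4659 or rps0b each. The 35 efficiency calls became 59 with median-of-ratios scaling (40 higher), 109 with voom, 12 without the subunit covariate, 142 in RPL strains alone, 7 with the left-out library, 0 without 3654v and 4662v, and 0 to 151 with 1 strain left out. With no replicate block, that is without pairing footprints and mRNA by strain, efficiency gave 0 calls. Over alternative settings, 150 of 215 values of named footprint genes kept their call, 57 lost it, 8 gained it and 0 changed sign. DAL82 passed in 34 of 35 settings, YFR006W in 19 of 35 and CYB5 in 16 of 36.

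The mRNA count stayed at 0 except without 1 strain (0 to 1). The 2 interaction calls in mRNA became 0 with a pseudocount of 5, at 50 RPKM and with voom, 5 with no filter, 1 with quantile scaling, without 4662v and without 3654v and 4662v, and 1 to 4 with 1 strain left out; in footprints 0 became 4 with no filter and 0 to 1. The same-family footprint count of 0 became 1 with voom, 656 in RPL strains alone, 12 with the left-out library, and 0 to 100 with 1 strain left out. The 656 became 378 with no filter, 377 at 50 RPKM, 314 with median-of-ratios and 283 with quantile scaling. It became 269 without rpl40a and 638 without rpl40b, the fits with a strain left out that kept both heterozygotes in the difference. The 1 mRNA call against the wild type became 3 with no filter and 0 with a pseudocount of 5, at 50 RPKM, with either other scaling, with voom, and without the double deletions, 4662v, or 3654v and 4662v (0 to 1 with 1 strain left out). Homozygous strains against the wild type gave 1 with a pseudocount of 0.1 or RPL strains alone and 2 with no filter (0 to 1). Footprint depth leaves genes such as DAL82 with few reads. edgeR and DESeq2 were not run.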

Other observations

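The left-out footprint library labelled rpl26a/+ rpl26b/+ correlated most, across genes, with the footprints of rps22a 4659 (r = 0.793) and rps0b (0.744), as a description with no test. Its RPL22B footprints were 152 RPKM and its RPS9A footprints 52.1, beside homozygous RPS medians of 236 and 77.8 and RPL medians of 34.8 and 647.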
